A study of Caenorhabditis elegans with 6 samples.

Results

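sptf-2 and its relatives sptf-1, sptf-3, klf-1, klf-2 and klf-3 are the Sp/KLF zinc finger genes of C. elegans examined here. They were taken by gene symbol, as the probe sets of the Affymetrix C. elegans genome array that name 1 of these genes alone. Each of the 6 genes had 1 such probe set, so that 6 of 22548 probe sets, or 6 of the 17138 genes with a probe set of their own, are described. No probe set named a member together with another gene. sptf-2 was selected by the study on these arrays for a signal that was higher in hs::ΔNTbar-1 animals, and the relatives were added for their family name. The difference of sptf-2 between the groups is therefore given as a description, with no test.

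Sp and Krüppel-like factors are transcription factors that bind GC-rich and CACCC-type DNA through C2H2 zinc fingers at the carboxy terminus, and they differ from each other mainly outside the fingers. Depending on the member, they activate or repress transcription. In C. elegans, SPTF-3 is known for the activation of the cell death gene egl-1 and for roles in vulval and gonad development, and the KLF proteins are known from work on fat storage.

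The samples were whole larvae of 2 strains, with 3 arrays per strain that the methods describe as independent biological replicates. hs::ΔNTbar-1 animals carry the integrated transgene huIs7, from which a Myc-tagged BAR-1 beta-catenin lacking its amino terminus is expressed under the hsp16.2 heat shock promoter. hs::control animals carry the transgene deIs14 with the empty heat shock vector. Both transgenes also hold mec-7::GFP, a reporter of touch neurons, and dpy-20(+), and the hs::control transgene was made in dpy-20(e1282) animals. All animals, controls included, were grown at 20°, heat-shocked for 30 min at 24 hr after hatching, at the L2/L3 molt, and collected 60 min later. The methods give 38° for the heat shock and the labels 30°, and the labels give the stage as L3. Each condition is 1 strain with its own transgene, so other differences between the strains and a response to ΔNTBAR-1 cannot be told apart. Unheated animals are not among the samples.

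The deposited values are linear signal intensities, scaled to a trimmed mean of 500.2 on each array, with a median of 131 to 145. Signals under 100, called dim here, made up 43.1% to 45.6% of each array. bar-1, the gene on the transgene, had a signal of 7755 to 20991 on the hs::ΔNTbar-1 arrays and of 519.5 to 586.3 on the hs::control arrays, so each array lay on the side of its label. Of the yolk genes, which are expressed in adults, vit-2 and vit-5 had mean signals of at most 10.4 in either group, vit-6 of 147 and 159. A signal depends on the probes as well as on the transcript, so levels were compared between groups and never between genes. In whole animals, fewer cells that express a gene and less RNA per cell cannot be told apart.

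For sptf-2, the study's quantitative PCR primers are the sequences that mark the transcript followed up from these arrays. They are shown 5′ to 3′ as in the study's list of oligonucleotides. The gene lies on chromosome II, and the PCR itself was not analysed here.
sptf-2 forward primer: catttaagagcacatttaaggaagcatac
sptf-2 reverse primer: accgatgtcaagtgttgttgaagat

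sptf-2 (T22C8.5) was the member with the largest difference between the groups. In hs::ΔNTbar-1 animals it had signals of 467.6 on replicate 1, 591.9 on replicate 2 and 511.6 on replicate 3, and in hs::control animals of 142.6, 223.7 and 191.2 in the same order. Every hs::ΔNTbar-1 array lay above every hs::control array, and the lowest of them was still clear of the highest control. The means were 524 ± 63 (SD, n = 3) and 186 ± 40.8 (SD, n = 3). On the scale of log2(signal + 16), which understates changes of dim genes, the difference was 1.43 (standard error 0.19), or 2.7-fold. As a ratio of mean signals it was 2.82-fold, and the single hs::ΔNTbar-1 arrays stood at 2.52, 3.19 and 2.75 times the control mean. In log2 fold change, high to low, sptf-2 ranked 51 among the 22548 probe sets, and 0.408% of them had a change of larger size in either direction. The study selected sptf-2 by a change of at least 2-fold and a p of at most 0.05 in an analysis of variance. It also asked that at least 2 of 3 replicates agree in direction. Recomputed here on log2(signal + 16), and not on the study's RMA values, these criteria were met by 1.25% of all probe sets. This share need not equal the study's own.

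Within hs::ΔNTbar-1 animals, sptf-2 and bar-1 were both lowest on replicate 1 and highest on replicate 2. bar-1 had signals of 7755, 20991 and 16009 on replicates 1, 2 and 3. bar-1 thus varied over the 3 arrays with a coefficient of variation of 44.8%, and sptf-2 with one of 12%. From 3 arrays this order is a description only, and how many other probe sets shared it was not counted.

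**Figure D1:**
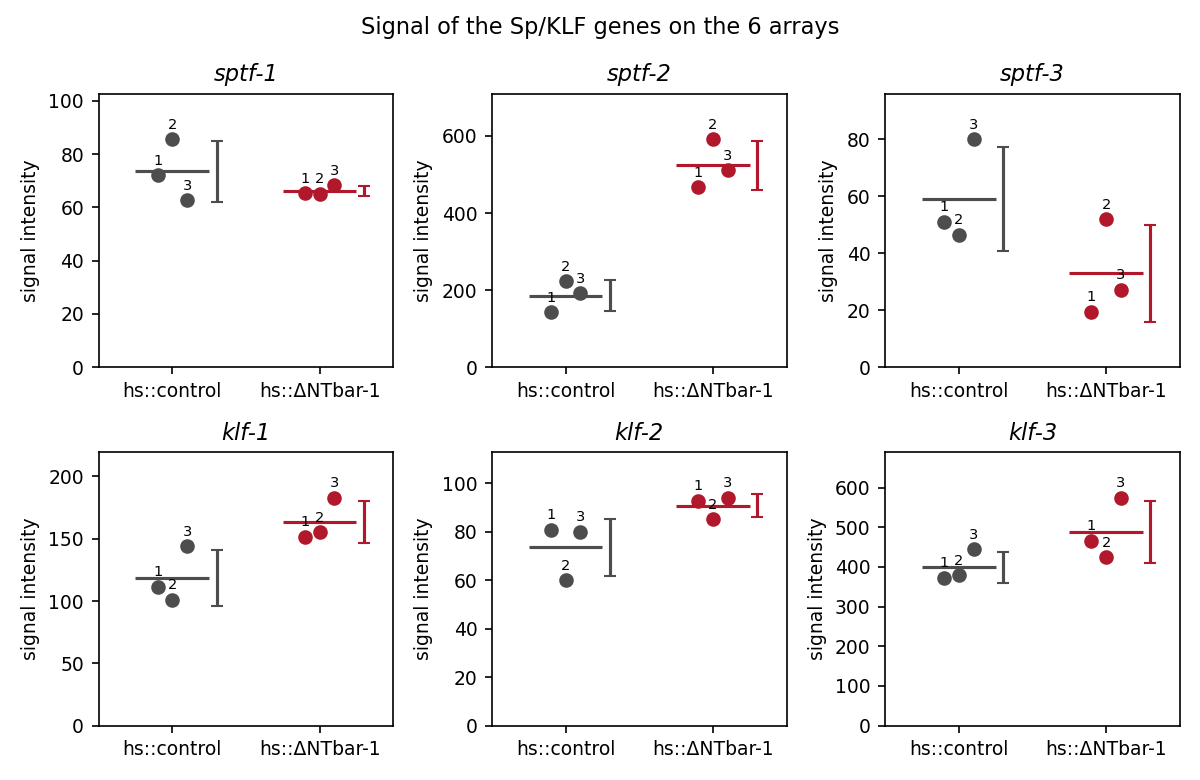
Signal intensity (linear scale from 0, a separate axis for each gene) of the 6 Sp/KLF genes on each array. Points are arrays labelled with their replicate number, lines are group means and bars beside them the SD of 3 arrays. The groups are far apart for sptf-2 (467.6 to 591.9 against 142.6 to 223.7), while the points of sptf-1, sptf-3 and klf-3 overlap.

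None of the 5 relatives passed limma's test at an adjusted p under 0.05, where 0.674% of all probe sets did. klf-1 was the only relative at an unadjusted p under 0.05, which 13.5% of all probe sets reached. No relative changed by 2-fold or more, against 1.62% of all probe sets. The groups did not overlap for klf-1 and klf-2, that is 2 of 5 relatives, and did not overlap at 20.8% of all probe sets. The KLF genes had log2 fold changes above 0 and the other Sp genes had log2 fold changes below 0.

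Among the Sp genes, the probe sets of sptf-1 and sptf-3 were dim in both groups. sptf-1 (F45H11.1) had signals of 65.2, 65.1 and 68.2 on the hs::ΔNTbar-1 replicates and of 72.1, 85.6 and 62.7 on the hs::control replicates. The hs::ΔNTbar-1 values lay inside the range of the controls, and the log2 fold change was -0.12 (standard error 0.13, 95% interval -0.43 to 0.2, adjusted p = 0.759 from limma).

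sptf-3 (Y40B1A.4), the activator of egl-1, had signals of 19.5, 51.9 and 27.2 on the hs::ΔNTbar-1 replicates and of 51, 46.4 and 80 on the hs::control replicates. Replicates 1 and 3 of hs::ΔNTbar-1 animals were below all controls, and replicate 2 was above 2 of the 3. The log2 fold change was -0.65 (standard error 0.29, 95% interval -1.34 to 0.04, adjusted p = 0.4 from limma), the widest interval of the family. With so dim a signal its size depended on the pseudocount, at -0.90 with a pseudocount of 1 and -0.35 with 64.

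klf-1 (F56F11.3), known for fat storage and lifespan in worms, had signals of 151.7, 155.3 and 183 on the hs::ΔNTbar-1 replicates and of 111.4, 101 and 143.9 on the hs::control replicates. The lowest hs::ΔNTbar-1 array was just above the highest control. The log2 fold change was 0.42 (standard error 0.16, 95% interval 0.04 to 0.8, unadjusted p = 0.0346, adjusted p = 0.325 from limma), or 1.34-fold.

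klf-2 (F53F8.1) had signals of 92.9, 85.3 and 94.1 on the hs::ΔNTbar-1 replicates and of 80.8, 59.9 and 80 on the hs::control replicates, dim on every array. The groups came within a few units of signal of each other without overlap. The log2 fold change was 0.26 (standard error 0.14, 95% interval -0.07 to 0.59, adjusted p = 0.472 from limma).

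klf-3 (F54H5.4), like klf-1 a gene of fat metabolism, had signals of 465.7, 424.3 and 574.6 on the hs::ΔNTbar-1 replicates and of 373, 379.5 and 444.8 on the hs::control replicates. hs::ΔNTbar-1 replicate 2 was below hs::control replicate 3, so the groups overlapped. The log2 fold change was 0.27 (standard error 0.15, 95% interval -0.09 to 0.64, adjusted p = 0.499 from limma). klf-3 lies on the same chromosome as sptf-2.

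Set against sptf-2, the relatives were lower in log2 fold change by 1.01 for klf-1, 1.16 for klf-3, 1.17 for klf-2, 1.55 for sptf-1 and 2.08 for sptf-3. The upper ends of their 95% intervals were 0.8 or less on the log2 scale, below the 2-fold change that the study asked for. The lower end reached past a 2-fold decrease for sptf-3 alone. These intervals come from 3 arrays per group, and an adjusted p above 0.05 does not show that a relative was the same in both strains.

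Other C2H2 zinc finger regulators were listed by family to show how sptf-2 compares with factors that share its DNA-binding fold. Among the genes that rose by its criteria on these arrays, the study found sptf-2 as the only known transcription factor gene. That sptf-2 stands above this list was therefore largely known beforehand and is a description only. All 40 were measured, and 0 passed limma's test at an adjusted p under 0.05, while 0.729% of all genes did by their brightest probe set. The median log2 fold change of the list was -0.04, that of all genes was 0, and 17 of the 40 were above 0. At an unadjusted p under 0.05 there were 4 of the 40, of which 3 were higher, a smaller share than the 13.9% of all genes at that threshold. The members' own range of -0.65 to 1.43 can be read beside the list's range of -0.60 to 1.22.

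The ends of that range were ehn-3, at -0.60 (standard error 0.42, adjusted p = 0.606 from limma), and ztf-16. ztf-16 had signals of 140.7, 182.3 and 138.3 on the hs::ΔNTbar-1 replicates and of 101.7, 11.6 and 100 on the hs::control replicates. hs::control replicate 2 was far below the other arrays, and the log2 fold change was 1.22 (standard error 0.57, 3 arrays per group, adjusted p = 0.425 from limma). For sptf-2 that same array held the highest control value.

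The 4 regulators at an unadjusted p under 0.05 were named after their values were seen. tlp-1, a gene of asymmetric divisions in the tail, had signals of 306.4, 347.5 and 419.9 on the hs::ΔNTbar-1 replicates and of 213.2, 249.4 and 235.2 on the hs::control replicates. Its groups did not overlap, and the log2 difference was 0.58 with a standard error of 0.15 (adjusted p = 0.181 from limma). lin-29, which drives the larval-to-adult switch of the hypodermis, was at 0.42 (adjusted p = 0.252), lin-13 at 0.29 (0.287) and odd-2 at -0.25 (0.353).

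**Figure D2:**
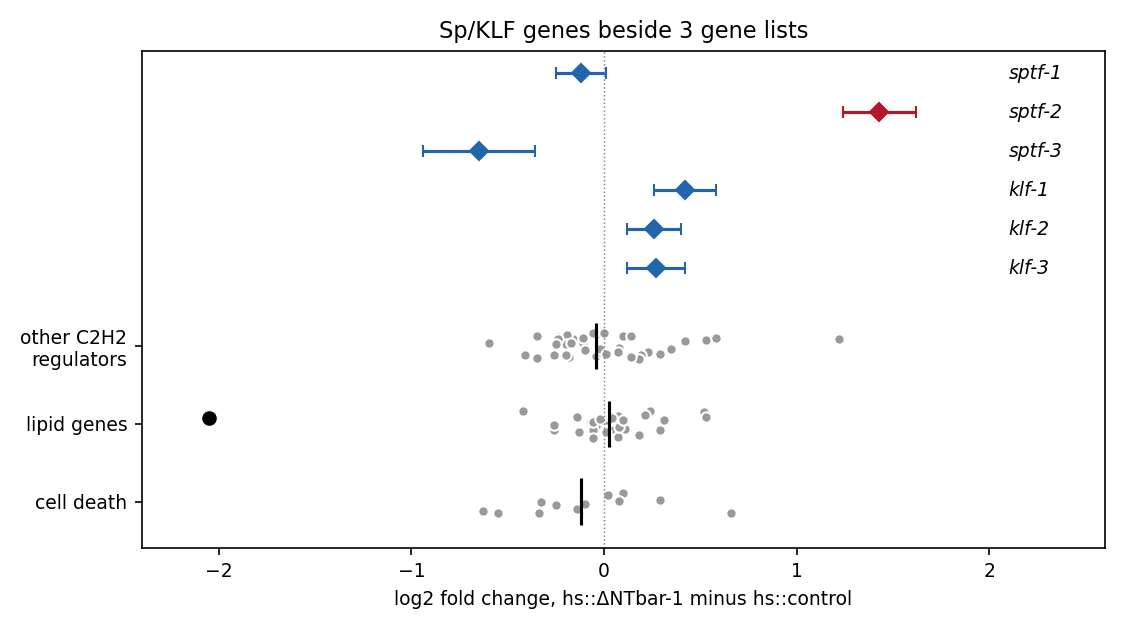
Log2 fold change (horizontal axis, hs::ΔNTbar-1 minus hs::control) of the Sp/KLF genes with bars of 1 standard error, and of the genes of 3 lists as points with a black line at each list's median. Black points are genes that passed limma's test at an adjusted p under 0.05, marked for the lists only, and acs-2 at -2.05 is the only one. sptf-2, selected by the study on these arrays for a higher signal, is at 1.43, to the right of its relatives and of every listed gene.

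Cell death genes were listed because of SPTF-3. Of 12 measured, 0 passed limma's test, where 0.729% of all genes did, and the median log2 fold change was -0.12. By mean signal over the 6 arrays, 6 of the 12 were dim, egl-1 and ceh-30 among them. So were 7676 of all 17138 genes. An unadjusted p under 0.05 was reached by 2 genes, egl-1 and nuc-1, which differed in opposite directions, and by 13.9% of all genes. egl-1, the BH3-only gene that starts cell death, had signals of 89, 104.7 and 152.9 on the hs::ΔNTbar-1 replicates and of 70.3, 76.4 and 51.6 on the hs::control replicates. The groups did not overlap, and egl-1 had a log2 difference of 0.66 with a standard error of 0.22 (adjusted p = 0.267 from limma), of opposite sign to that of sptf-3. nuc-1, which encodes the DNase II that degrades the DNA of dying cells, was named after its values were seen. It had signals of 1199.3, 1193.1 and 996.3 on the hs::ΔNTbar-1 replicates and of 1494.9, 1324.6 and 1465 on the hs::control replicates. Every hs::ΔNTbar-1 array lay below every hs::control array, and nuc-1 was at -0.34 with a standard error of 0.13 (adjusted p = 0.325 from limma). pig-1, a kinase gene also known to depend on SPTF-3 and likewise named afterwards, was at -0.10 (adjusted p = 0.824), and the lowest value of the list was ceh-30 at -0.63 (0.504).

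Lipid genes were listed because of the KLF proteins. Of 30 measured, 1 fell in limma's test and 0 rose, where 0.286% of all genes fell. The median log2 fold change was 0.03, and 17 of the 30 genes were above 0, as were 50.1% of all genes. The gene that fell was acs-2, an acyl-CoA synthetase gene of mitochondrial fat oxidation. It had signals of 160.8, 191.9 and 154.2 on the hs::ΔNTbar-1 replicates and of 800.5, 587.7 and 889.9 on the hs::control replicates. The groups lay far apart, and acs-2 fell with a log2 difference of -2.05 and a standard error of 0.18 (adjusted p = 0.0118 from limma). The other probe set of acs-2 was lower by less and did not pass, at -0.99 (adjusted p = 0.154). The call was also lost without any 1 array except hs::control replicate 2, with adjusted p from 0.0531 to 0.0774 while the log2 difference stayed between -2.14 and -1.93. The other lipid genes named here were taken after their values were seen. The fatty acid synthase gene fasn-1, at 0.05 (adjusted p = 0.945), and the regulator nhr-49, at -0.14 (0.648), were near 0. The highest values of the list were those of the desaturase gene fat-7 at 0.53 (0.252) and of dgat-2, of triglyceride synthesis, at 0.53 (0.157).

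Neighbouring genes were examined because the study described some of the responding genes as lying close together. The 3 protein-coding genes on each side of sptf-2 all lie on clone T22C8 and were all measured. None passed limma's test, and their log2 fold changes ranged from -0.61 to 0.23, against 1.43 for sptf-2 between them. T22C8.4, next to sptf-2 on one side, had mean signals of 73.1 and 65.5 (a log2 difference of 0.14 with a standard error of 0.19, adjusted p = 0.816 from limma). T22C8.6, next to it on the other side, had signals of 224.5, 184.3 and 216.1 on the hs::ΔNTbar-1 replicates and of 343.1, 268.1 and 377.5 on the hs::control replicates. This neighbour was thus lower where sptf-2 was higher, with a log2 fold change of -0.61 (standard error 0.16, unadjusted p = 0.00791, adjusted p = 0.189 from limma). Its groups did not overlap, which held at 20.8% of all probe sets.

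Further out, vab-9, which encodes a membrane protein of epidermal junctions, was at 0.21 (standard error 0.12, adjusted p = 0.499 from limma). Its groups did not overlap either, with the hs::ΔNTbar-1 arrays higher. The cuticlin-like gene cutl-12 was at 0.18 (adjusted p = 0.811 from limma), T22C8.3 at 0.23 (0.514) and chhy-1 at -0.09 (0.824). Around all 6 members, 31 of 36 such neighbours were measured. Of these 0 passed limma's test and 3 had an unadjusted p under 0.05, which 13.9% of all genes had, and each of the 3 was lower in hs::ΔNTbar-1 animals. The lowest, named after its value was seen, was ZC434.9, beside sptf-1, at -1.03 (standard error 0.21, adjusted p = 0.125).

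**Figure D3:**
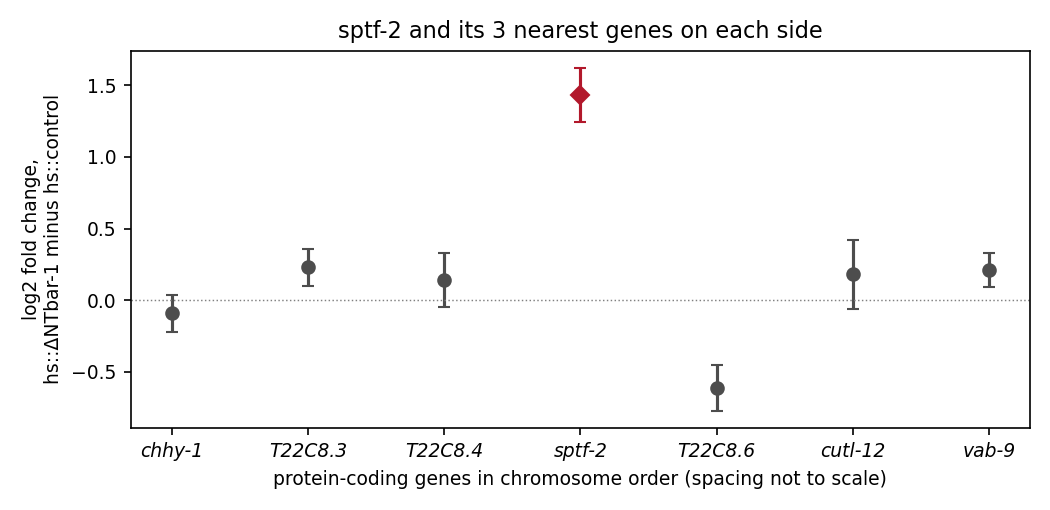
Log2 fold change (vertical axis, hs::ΔNTbar-1 minus hs::control) of sptf-2 and of the 3 protein-coding genes on each side, in chromosome order and with bars of 1 standard error. sptf-2 is at 1.43 and its neighbours lie between -0.61 and 0.23.

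The genes with the profile most like that of sptf-2 were found by the root mean square difference in log2(signal + 16) over the 6 arrays, after each gene was centred on its own mean. Of 11972 probe sets with a mean signal of at least 100, the 5 nearest were those of pry-1 (0.158), cgt-2 (0.165), F07A11.4 (0.166), F09C8.1 (0.173) and ZK6.6 (0.19), where the values in parentheses are the differences from sptf-2. They were picked for this likeness, so their own differences between the groups are given without a test. The choice used every array, so an order of replicates shared with sptf-2 follows in part from it and is a description only. The 5 were the same with quantile normalization, with centring of each array on its median and with a pseudocount of 1, and 4 of them were the same with a pseudocount of 64.

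The nearest was pry-1, which encodes Axin, a negative regulator of Wnt signaling. Its probe set had signals of 343.3, 314.1 and 348.9 on the hs::ΔNTbar-1 replicates and of 103.3, 139.4 and 129 on the hs::control replicates, a log2 fold change of 1.34 (standard error 0.14). On this probe set the control arrays ran in the order of those of sptf-2, with replicate 1 lowest and replicate 2 highest. Its hs::ΔNTbar-1 arrays did not run in the order of those of sptf-2. The other and brighter probe set of pry-1, with signals of 1535.2, 1712 and 1777.9 against 766.6, 736.7 and 709.8, gave 1.16 (standard error 0.11). There the control arrays ran otherwise, with replicate 1 highest and replicate 3 lowest.

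cgt-2, of glucosylceramide synthesis, had signals of 188.2, 237 and 145.4 on the hs::ΔNTbar-1 replicates and of 49.7, 82.4 and 69.8 on the hs::control replicates (log2 fold change 1.30, standard error 0.22). F07A11.4, which the study groups with ubiquitylation and proteolysis, had signals of 703, 672 and 753.3 against 225.7, 280 and 235.5 (1.47, standard error 0.13). Both had hs::control replicate 1 lowest and hs::control replicate 2 highest, as sptf-2 did. F09C8.1 and ZK6.6 were at 1.23 (standard error 0.14) and 1.20 (standard error 0.27), and a further probe set of F09C8.1 was at 1.02. The probe sets of F07A11.4 and F09C8.1 carry suffixes that Affymetrix gives to probes shared between transcripts.

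**Figure D4:**
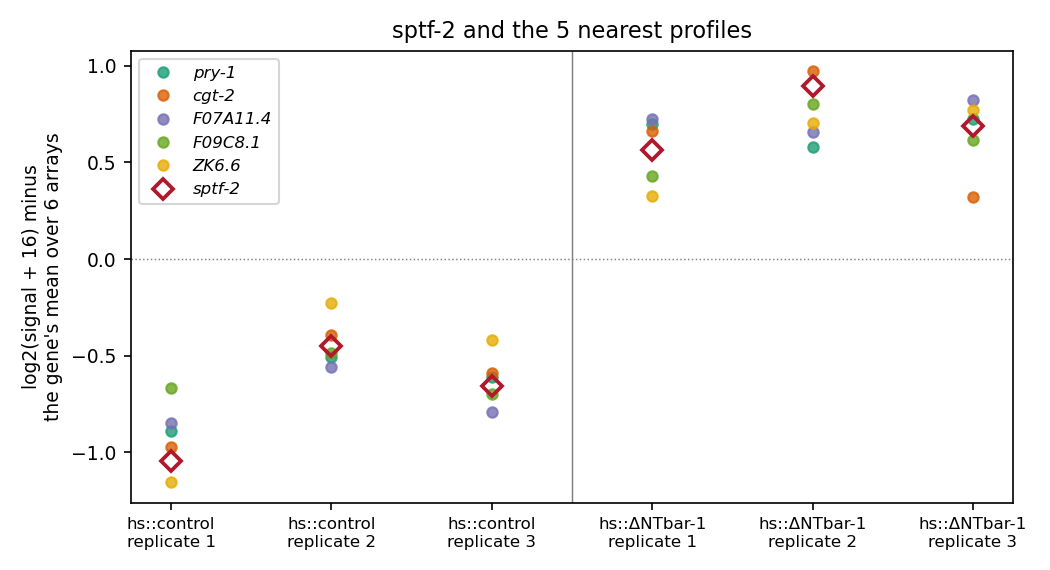
Log2(signal + 16) minus the mean of the gene over the 6 arrays (vertical axis) for sptf-2, open diamonds, and the 5 genes with the nearest profiles, filled circles, on each array. On every array the 5 genes, picked for a profile like that of sptf-2, scatter around it. hs::control replicate 1 holds the lowest value of each of sptf-2, cgt-2, F07A11.4, ZK6.6 and the drawn probe set of pry-1.

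Markers of tissues were summed on each array to show what else moved with the groups. The sum of 8 hypodermis markers was 52806 to 59522 on the hs::ΔNTbar-1 arrays and 41294 to 51528 on the hs::control arrays. The higher sum came from the cuticle collagen genes rol-6, dpy-5 and dpy-13. Their log2 fold changes were 0.58, 0.57 and 0.17 (adjusted p = 0.172, 0.227 and 0.661 from limma). The study found cuticle structural genes such as collagens over-represented among the genes that rose on these arrays, so this sum is not independent of that result. The hypodermal regulator elt-3 was lower, at -0.56 (standard error 0.11, adjusted p = 0.116 from limma), and its other probe set was at -0.10. Of the rest, dpy-7 was at 0.08, lin-26 at -0.02, elt-1 at -0.05 and ajm-1 at -0.33. The sum of 5 pharynx markers was 13842 to 15915 against 17330 to 18558, with the largest difference in the troponin gene tnt-4 at -0.48 (standard error 0.10, adjusted p = 0.132). No marker of either tissue passed limma's test, where 0.729% of all genes did. An unadjusted p under 0.05 was reached by 3 of 8 hypodermis and 1 of 5 pharynx markers, and by 13.9% of all genes. The sums of 5 intestine, 6 body wall muscle, 7 neuron, 6 germ line and 8 oocyte and yolk markers overlapped between the groups. Among single probe sets, the groups did not overlap at 20.8%. The part of these shifts in the values of sptf-2 and its relatives was not tested.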

How the data were processed

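The authors deposited 1 table of linear signal intensity for 6 arrays. The methods name Affymetrix MAS 5 and RMA in Partek. The deposited intensities are linear, unlike RMA output, and share a trimmed mean of 500.2 (2% off each end), so they were read as MAS 5 signals scaled per array. Groups and replicate numbers come from the labels, which give 6 µg of RNA where the methods give 5 µg. The table has 0 columns of other samples, and no pair of arrays had more than 0.297% identical values.

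The 77 control probe sets were left out. Of 22548 tested, 20766 name 1 gene, 887 several and 895 none in the platform annotation, and 20701 were matched by gene ID to the RefSeq gene table (WBcel235) for symbols and gene order. A gene with several probe sets is given by the brightest on average. The nearest profiles were searched by probe set instead, and pry-1 is given there first by its less bright one. log2(signal + 16) was compared with limma 3.58.1 (lmFit, eBayes; R 4.3.3), two-sided and with no filter or block, with Benjamini-Hochberg adjustment across the whole table and a threshold of 0.05. An exact permutation test of 3 against 3 cannot give a p below 0.1.

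The members and lists were chosen with earlier results of these data known. By rule, the genes named are the members, bar-1, neighbours of sptf-2, the called genes or extremes of each list and the 5 nearest profiles. Of the tissue marker lists, only the extremes of hypodermis and the lowest of pharynx are given, and the other extremes were left out. Named in addition, after their values were seen, were the regulators at an unadjusted p under 0.05, nuc-1, pig-1 and lipid genes other than acs-2. So were ZC434.9, the yolk genes, the collagen genes, lin-26, elt-1 and ajm-1. The steps were tested on simulated data. Alternatives were other scalings, pseudocounts, a filter on dim probe sets, another variance model, a replicate block and leaving out each array. Each member has 1 probe set, so no other could be tried.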

Additional observations from a re-analysis of the deposited data

How the results depend on the processing

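The log2 fold change of sptf-2 stayed between 1.24 and 1.57 in all 14 alternatives run, 1.27 to 1.57 with 1 array left out, and moved by less than the spread between replicates in each. The relatives kept their direction and stayed above an adjusted p of 0.05 in every alternative with a test, with adjusted p of 0.641 to 0.966 for sptf-1, 0.272 to 0.634 for sptf-3, 0.142 to 0.533 for klf-1, 0.278 to 0.659 for klf-2 and 0.305 to 0.733 for klf-3. sptf-1 and sptf-3 are under the filter on dim probe sets and have no value there. The gap between sptf-2 and sptf-3 was 1.59 with a pseudocount of 64, and 1.92 to 2.41 in the other alternatives. Over all probe sets, the 152 calls became 89 and 389 with pseudocounts of 1 and 64 and 635 without the dim probe sets. They became 833 with a trended and robust variance, and 23 to 44 with 1 array left out. The study's criteria, recomputed on these signals, were met by 282. A fit on fewer arrays has a wider error, and for the rest the cause was not tested. The count of lipid genes called, 1 in the main analysis, was 2 with the filter or the trended variance and 0 to 1 with 1 array left out. Hypodermis markers had 1, 2 and 3 calls with a pseudocount of 64, the filter and the trended variance, and pharynx markers 1 in each. The labels and methods do not say whether same-numbered arrays of the groups were handled together. Correlations of their deviations were 0.0659, -0.0211 and 0.0647 for replicates 1, 2 and 3, which does not settle it. With the replicate number as a block, 2 probe sets were called, and 0 lipid genes (acs-2 at an adjusted p of 0.139), and no relative of sptf-2 passed. The comparison of nearest profiles across settings was added after seeing the data.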
